A study of Mus musculus with 20 samples.

Results

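The regions described here are H3K4me3 sites of the mouse genome that carried H3K4me3 in both neuron classes of the study and H3K27me3 in the excitatory libraries only. Overlapping H3K4me3 peaks of 4 libraries on chromosomes 1 to 19 and X were merged into 345930 union regions, and 20979 of these held a peak of all 4 libraries. Of the 20979 shared regions, 535 (2.55%) overlapped by at least 1 base an H3K27me3 peak of both excitatory libraries and of neither inhibitory library. They are called the excitatory-only Polycomb regions. The regions were chosen by these measured H3K4me3 and H3K27me3 peaks, so those values are given as a description with no test. All values of H3K27ac, H3K4me1 and EGR1 come from libraries that the choice did not use. The covered length of H3K4me3 did not enter the choice either, but it comes from the same 4 lists that set the bounds of each region and had to hold a peak there, so its tests are not independent of those bounds.

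The libraries were made by CUT&RUN, in which an antibody directs a nuclease to cut out the DNA it binds in intact nuclei. The nuclei were sorted from whole brain of 8-week-old mice and labelled excitatory neuron or inhibitory neuron, with 2 libraries per antibody and type and 20 libraries in all. Antibodies were raised against 4 histone marks, H3K4me1, H3K4me3, H3K27ac and H3K27me3, and against EGR1, a zinc-finger transcription factor whose gene is switched on by neuronal activity. All 20 libraries, excitatory and inhibitory alike, carry the same genotype label, Sun1 f/f with Emx1Cre (+). Sun1 is a nuclear envelope protein, and Emx1, which drives the Cre recombinase, is a homeobox gene of the progenitors of cortical excitatory neurons. The label does not say what the f/f allele carries, nor whether Cre alters the Sun1 gene itself. The labels do not say which gate set inhibitory nuclei apart. They also do not state whether paired libraries of a type derive from different mice, so the spread behind each p-value is that of these libraries and may be technical.

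Polycomb repressive complexes place H3K27me3 at CpG-rich start sites of genes that a cell lineage does not use, and Trithorax-group complexes place H3K4me3 at start sites that are active or ready to be activated. Start sites that carry both marks are called bivalent and are best known at developmental transcription factors and signalling genes. H3K27ac marks active promoters and enhancers on the same lysine that Polycomb methylates, so a single histone tail cannot carry both. H3K4me1 flanks active promoters and marks enhancers. In sorted nuclei, 2 marks at a region need not lie on the same allele or in the same cell.

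Sequences of 6 start sites show the range of promoters found among these regions. Each is 300 bases long, 250 before and 50 after the start site, written 5′ to 3′ on the strand of the gene, from RefSeq on GRCm38.p6, the assembly that mm10 is made from. Capitals mark CpG dinucleotides, the substrate of DNA methylation and the feature that Polycomb-bound promoters usually share. Igsf21 and Syt9 are shown as start sites with broad H3K27me3, Cnpy1, Caln1 and Rag1 as those with the smallest p for lower H3K4me3 in excitatory libraries among regions with a named gene, and Bdnf as a start site where EGR1 and the histone marks went in different directions.
Igsf21 (chr4:140246762-140247061, - strand): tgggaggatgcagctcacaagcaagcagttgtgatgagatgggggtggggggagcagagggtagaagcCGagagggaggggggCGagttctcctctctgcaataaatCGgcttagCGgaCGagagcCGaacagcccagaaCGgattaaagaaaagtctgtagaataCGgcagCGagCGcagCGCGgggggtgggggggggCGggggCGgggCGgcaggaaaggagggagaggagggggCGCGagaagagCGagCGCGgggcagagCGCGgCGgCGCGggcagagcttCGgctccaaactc
Syt9 (chr7:107370540-107370839, + strand): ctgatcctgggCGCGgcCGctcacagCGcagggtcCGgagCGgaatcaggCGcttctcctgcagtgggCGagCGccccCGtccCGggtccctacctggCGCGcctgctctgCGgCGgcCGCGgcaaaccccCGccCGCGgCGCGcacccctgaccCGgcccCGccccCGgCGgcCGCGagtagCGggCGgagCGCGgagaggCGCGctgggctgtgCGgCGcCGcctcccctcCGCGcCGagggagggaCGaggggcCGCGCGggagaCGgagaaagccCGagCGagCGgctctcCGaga
Cnpy1 (chr5:28210119-28210418, - strand): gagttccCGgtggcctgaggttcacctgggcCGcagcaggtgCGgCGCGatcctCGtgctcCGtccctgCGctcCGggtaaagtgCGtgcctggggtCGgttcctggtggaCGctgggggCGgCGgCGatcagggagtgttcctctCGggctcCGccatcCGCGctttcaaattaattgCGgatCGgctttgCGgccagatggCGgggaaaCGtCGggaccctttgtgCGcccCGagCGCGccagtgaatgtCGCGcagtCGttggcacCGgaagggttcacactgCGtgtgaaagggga
Caln1 (chr5:130369208-130369507, + strand): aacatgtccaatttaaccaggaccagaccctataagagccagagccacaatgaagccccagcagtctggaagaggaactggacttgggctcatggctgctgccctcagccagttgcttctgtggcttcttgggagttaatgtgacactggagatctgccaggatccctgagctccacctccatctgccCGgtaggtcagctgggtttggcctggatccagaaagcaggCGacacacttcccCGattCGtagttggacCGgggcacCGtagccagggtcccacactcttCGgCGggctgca
Rag1 (chr2:101649483-101649782, - strand): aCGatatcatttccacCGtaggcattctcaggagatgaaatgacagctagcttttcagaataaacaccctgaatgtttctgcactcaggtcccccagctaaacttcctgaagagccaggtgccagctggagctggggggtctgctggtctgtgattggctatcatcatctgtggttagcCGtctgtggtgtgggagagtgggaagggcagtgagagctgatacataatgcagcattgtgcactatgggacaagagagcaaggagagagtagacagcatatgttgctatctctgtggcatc
Bdnf (chr2:109676782-109677081, + strand): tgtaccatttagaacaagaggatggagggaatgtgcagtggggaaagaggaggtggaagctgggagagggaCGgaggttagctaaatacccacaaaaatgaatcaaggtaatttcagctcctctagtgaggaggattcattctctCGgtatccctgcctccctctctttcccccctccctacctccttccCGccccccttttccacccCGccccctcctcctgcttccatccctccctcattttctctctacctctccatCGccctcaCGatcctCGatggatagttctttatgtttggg
The Igsf21 sequence held 26 CpGs, that of Syt9 49 and that of Cnpy1 34. The Caln1 sequence held 8, that of Rag1 3 and that of Bdnf 7. CpG-rich and CpG-poor start sites both occurred among these 6 regions.

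H3K27me3 at the excitatory-only Polycomb regions was narrow and weak. The strongest H3K27me3 peak per region had a median −log10 p of 1.70 in excitatory replicate 1 (range 1.04 to 4.09) and 1.69 in replicate 2 (range 1.02 to 4.33). The median fold enrichment, as the authors' peak caller gave it, was 1.94 and 1.91. H3K27me3 covered a median of 774 bases of the region in excitatory replicate 1 and 809 in replicate 2, or 45.2% and 48.1% of a region. In the 2850 shared regions with H3K27me3 in all 4 libraries, median coverage was 69.7% and 72.1% for excitatory and 95.8% and 91.6% for inhibitory libraries. Peak strength there was similar in the excitatory libraries, with a median −log10 p of 1.87 and 1.82 and a median fold of 1.98 and 1.92. Weak excitatory peaks were thus not particular to the 535. Only 34 of the 535 regions had a peak of −log10 p of at least 2 in both excitatory libraries, and 0 had one of at least 3. Of the 2850 regions, 516 and 19 did. Across the whole H3K27me3 lists, 0.00488% to 0.0099% of the peaks of a library passed a q of 0.05. The membership therefore rests on peaks at a lenient threshold.

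The regions at the edge of the choice show how close it lies. The weakest excitatory H3K27me3 among regions with a named gene was at Echdc3, with −log10 p of 1.1 and 1.32, at Traf3ip2, assigned by either gene end, with 1.11 and 1.52, and at Osbpl9, with 1.97 and 1.15. Just outside lay Svep1, a matrix protein gene with −log10 p of 2.89 and 2.37 in the excitatory libraries, which was left out through an inhibitory peak of 1.06. Emilin3 and Frzb, the latter a secreted WNT antagonist, were likewise left out through an inhibitory peak of 1.14 and of 1.43. In all, 380 shared regions had H3K27me3 in both excitatory and 1 inhibitory library, and 787 had it in 1 excitatory library only.

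An inhibitory H3K27me3 peak often lay close by. It was within 1000 bases of 165 of the 535 regions, within 2000 bases of 259 and within 5000 bases of 391. The median distance to the nearest inhibitory H3K27me3 peak was 2070 bases, against 4438 bases for the 12251 shared regions without H3K27me3 in any library. In the profile, H3K27me3 covered 52.7% and 53.5% of the bin just before the centre in the excitatory libraries. In the inhibitory libraries H3K27me3 coverage reached 13.9% and 9.73% at 3250 bases before the centre, beside 14.3% and 15.4% in the excitatory libraries.

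**Figure D1:**
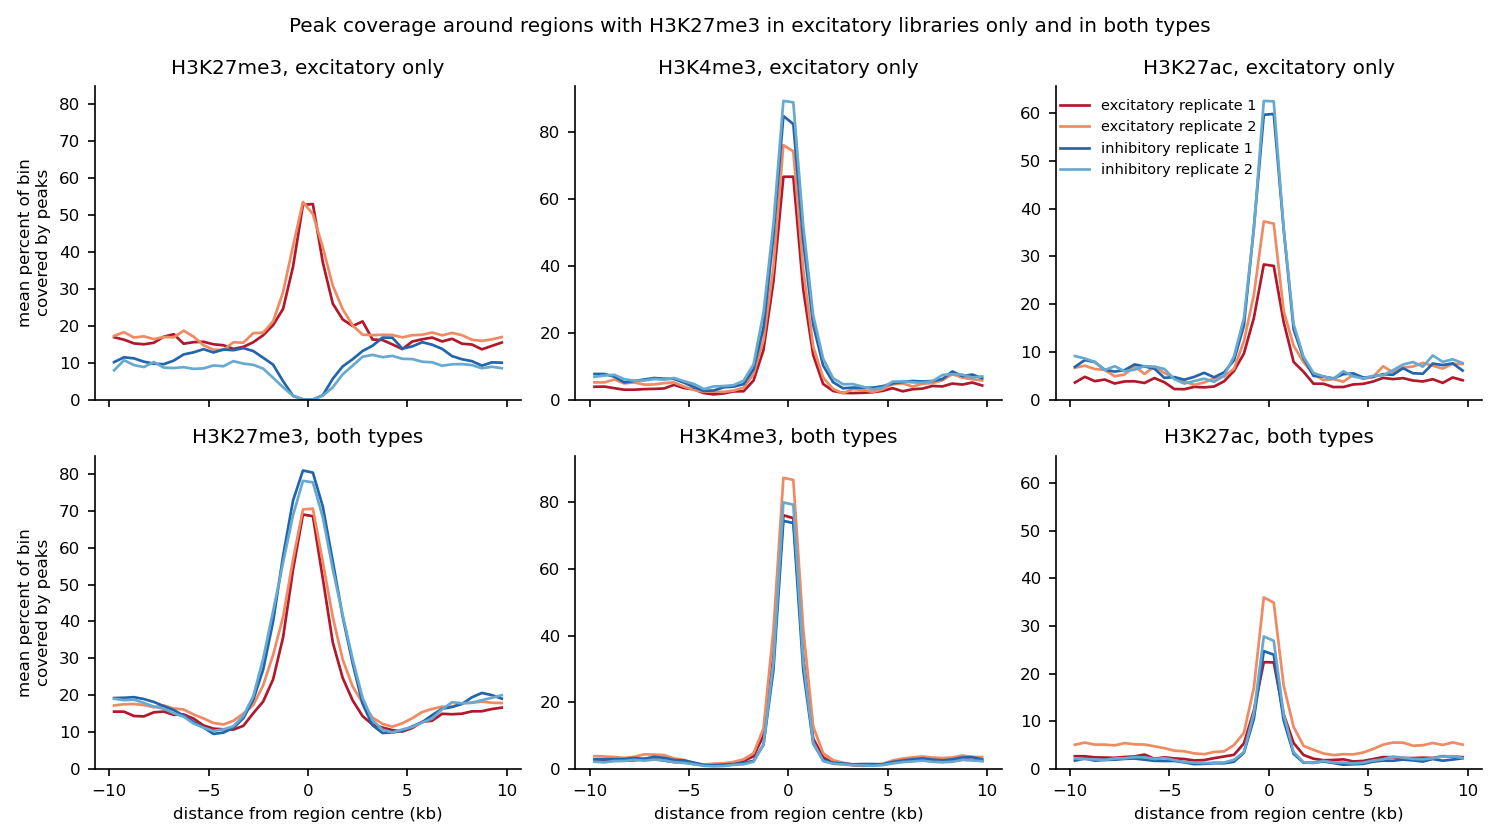
Mean percent of each 500-base bin covered by peaks (y axis) against distance from the region centre in kb (x axis), for H3K27me3, H3K4me3 and H3K27ac in each of the 4 libraries, at the 535 excitatory-only Polycomb regions (top) and the 2850 regions with H3K27me3 in both types (bottom). In the top row the H3K27me3 gap in inhibitory libraries is set by the choice of regions; the inhibitory lines lie above the excitatory lines at the centre for H3K4me3 and H3K27ac, while the bottom row shows no such order.

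Marker genes separated the labelled types only in part. Within 2 kb of the start site, H3K4me3 was lower in both excitatory than in both inhibitory libraries at 9 of 30 inhibitory neuron markers (12.2% of 26794 genes) and higher at 4 (14.8% of genes). Of 28 excitatory markers 8 were higher and 6 lower in excitatory libraries. At Lhx6, a homeobox gene of cortical interneurons, H3K4me3 covered 8.70% and 13.4% of this window in excitatory and 36.2% and 39.5% in inhibitory libraries. At Neurod6, a bHLH gene of cortical excitatory neurons, it covered 35.0% and 39.0% in excitatory and 8.02% and 0% in inhibitory libraries. Tbr1, a T-box gene of deep-layer excitatory neurons, went against the labels, with H3K4me3 over 0% and 24.5% in excitatory and 64.6% and 70.0% in inhibitory libraries. For H3K27ac, 3 of the 30 inhibitory markers were lower (21.5% of genes) and 4 higher (8.88%) in excitatory libraries, and of the 28 excitatory markers 7 and 5. H3K27ac was listed at 0 in both inhibitory libraries within 2 kb of Gad1, Gad2, Slc32a1, Dlx1, Dlx2, Lhx6 and Sst, genes that define inhibitory neurons. It was low in excitatory libraries too, at 0 in both at Slc32a1, Dlx1 and Sst. It covered 19.3% and 0% at Gad1, 0% and 0.175% at Gad2, 0% and 11.2% at Dlx2, and 10.9% and 0.175% at Lhx6. At the 12 astrocyte markers 4 had lower and 0 higher H3K4me3 in excitatory libraries, at the 10 oligodendrocyte lineage markers 0 and 2, at the 9 microglia markers 0 and 0, and at the 9 vascular markers 2 and 2. The part of other cells in the differences was not tested, and the libraries are named by their labels throughout.

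At the excitatory-only Polycomb regions H3K4me3 covered less of the region in excitatory than in inhibitory libraries. The median region was covered to 59.2% in excitatory replicate 1, 69.0% in excitatory replicate 2, 83.5% in inhibitory replicate 1 and 89.4% in inhibitory replicate 2. The 2 types did not overlap: 64.1% ± 6.98 (SD, n = 2 libraries) in excitatory against 86.4% ± 4.17 (n = 2) in inhibitory libraries, exact permutation p = 0.333, two-sided, which is the smallest p that 2 against 2 libraries allow. Over all 20979 shared regions the same medians were 80.8% ± 6.24 and 81.9% ± 3.88 and overlapped. The 1009 regions with H3K27me3 in both inhibitory and neither excitatory library had the reverse order, with 82.6% ± 6.53 in excitatory and 70.8% ± 4.02 in inhibitory libraries.

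Region by region, both excitatory libraries lay below both inhibitory libraries in H3K4me3 coverage at 323 of 535 regions, or 60.4%, beside 25% of all shared regions. Both lay above at 36, or 6.73%, beside 22% of all. On the quantile-normalized scale the median difference, excitatory minus inhibitory, was −16.3 percentage points, and 434 of the 535 were below 0, while the median over all shared regions was −0.13. limma called 0 of the 535 regions at an adjusted p of 0.05, and 0% of all 20979. At an unadjusted p of 0.05 limma passed 192 regions lower in excitatory (10.2% of all shared regions) and 13 higher (9.7%).

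Of the settings run for H3K4me3, only a window widened by 2 kb on each side of the region gave calls. The others, among them no quantile normalization, a log2 scale and a replicate block, gave 0, as the region itself did. The calls below thus depend on this window. In it, limma with Benjamini-Hochberg adjustment called 80 of the 535 regions lower in excitatory libraries (2.29% of all shared regions) and 2 higher (2.76% of all). This is 15% of the 535, against 2.16% of the regions without H3K27me3, 0.982% of those with H3K27me3 in both types and 0.396% of those with H3K27me3 in inhibitory libraries only. The median difference in this wider window was −5.76 percentage points of the window. Of the 82 called regions 51 lay at a start site of a protein-coding gene.

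**Figure D2:**
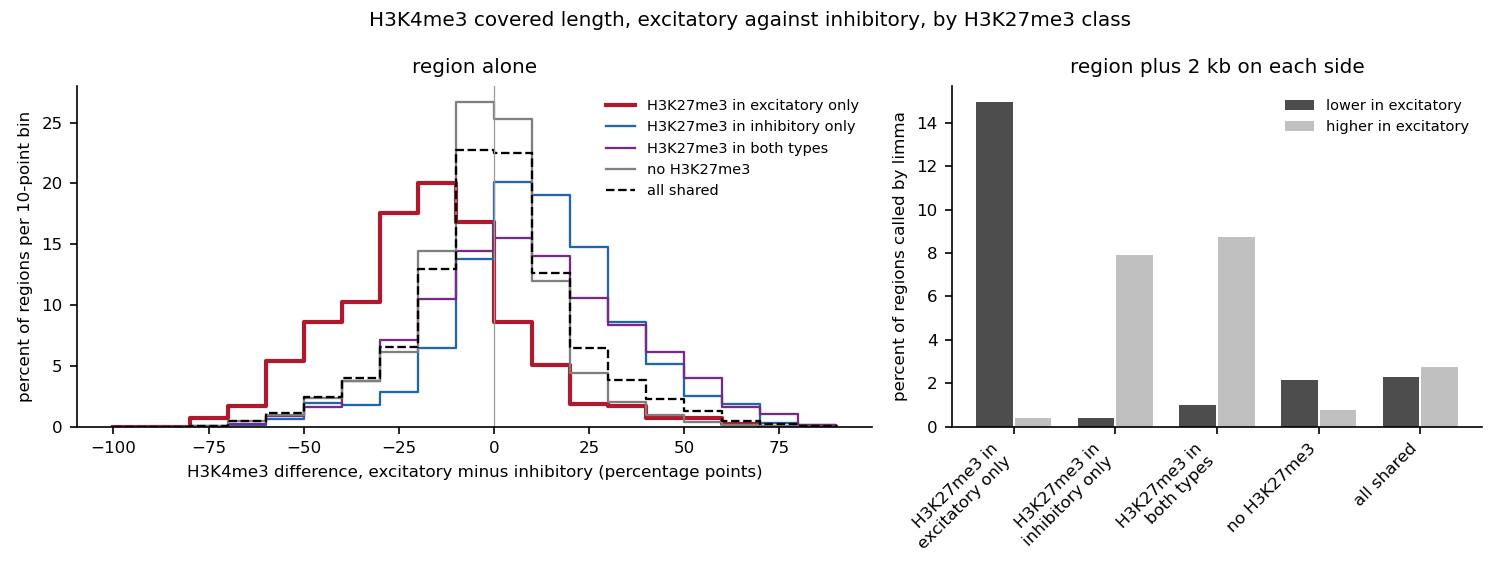
Left, distribution of the limma H3K4me3 difference (excitatory minus inhibitory, percentage points of the region, x axis) as the percent of regions per 10-point bin (y axis), by H3K27me3 class; right, percent of regions (y axis) called lower or higher in excitatory libraries by limma in the region plus 2 kb on each side. The excitatory-only class is shifted to values below 0 on the left, and on the right 15% of it was called lower.

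Some of the called regions are given here by name. At Caln1, which encodes a neuronal calcium sensor, H3K4me3 covered 17.4% and 12.8% of the wider window in excitatory and 37.1% and 39.9% in inhibitory libraries, and it fell by 22.6 percentage points (SE 3.44, limma adjusted p = 0.0127). At Syt9, a synaptotagmin that senses calcium on secretory vesicles, it covered 21.8% and 25.1% against 39.6% and 43.8% and fell by 17.5 points (SE 2.42, limma adjusted p = 0.00937). At Cacna1a, the pore-forming subunit of P/Q-type calcium channels, it covered 25.3% and 23.1% against 39.9% and 44.5% and fell by 17.4 points (SE 2.71, limma adjusted p = 0.0135). In each of the 3 the types did not overlap. Cacna1e, the R-type calcium channel subunit, went the other way: 41.3% and 45.5% in excitatory against 13.9% and 12.6% in inhibitory libraries, a rise of 31.9 points (SE 2.66, limma adjusted p = 0.00486). The other region called higher was at Sema4g, a transmembrane semaphorin gene, with 35.5% and 39.8% against 22.1% and 29.0% (limma adjusted p = 0.0475). The start of Cacna1a and those of Calb2, Gprc5c, Phactr3 and Pip5k1b are given by either gene end, because the reference gives no strand for them.

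Of the 5 inhibitory neuron markers with an excitatory-only Polycomb region, 3 were called lower in the wider window, Calb2, Sox6 and Reln. Over all 535 regions 15% were called lower, and over all shared regions 2.29%. The share among these few markers was not tested. Calb2 encodes calretinin, a calcium buffer of a set of interneurons, and its H3K4me3 in the wider window was 14.2% and 22.2% in excitatory and 40.6% and 44.1% in inhibitory libraries (−22.7 points, SE 2.61, limma adjusted p = 0.00523). Sox6, a transcription factor of interneurons from the medial ganglionic eminence, had 18.2% and 23.3% against 44.8% and 44.2% (−22.8 points, SE 2.66, limma adjusted p = 0.00523). Reln, the secreted glycoprotein of cortical layering, had 21.9% and 36% against 47.7% and 56.2% (−21.4 points, SE 3.88, limma adjusted p = 0.0217). None of the 3 overlapped between types. The other markers were not called: Prox1 had 26.4% and 24.3% against 27.6% and 41.6%, and Cnr1, the cannabinoid receptor gene, 41.8% and 38.9% against 24.6% and 42.6% (limma adjusted p = 0.255 and 0.405). Further calls lower in excitatory libraries were the transcription factor genes Lhx1 and Ebf1, the ligands Wnt7a and Bdnf, the NMDA receptor subunit Grin2c, and Gprc5c, Phactr3, Pip5k1b, Lhfp, Cnpy1, Rag1, Dab2ip and Chn2. The wider window can also hold inhibitory H3K27me3. At Sox6 H3K27me3 covered 1444 and 2172 bases of it in excitatory and 1655 and 2719 in inhibitory libraries. At Bdnf it covered 1790 and 1319 against 1025 and 1950 bases. At Calb2 it covered 2591 and 3081 against 296 and 0 bases, and at Reln 2558 and 2592 against 0 in both.

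Within the region itself the smallest p among regions with a named gene belonged to Cnpy1, Caln1 and Rag1. At Cnpy1, an endoplasmic reticulum protein gene of the canopy family that modulates FGF signalling, H3K4me3 covered 25.6% and 20.1% of the region in excitatory and 97.8% and 98.6% in inhibitory libraries. At Caln1 the values were 21.6% and 32.2% against 93.0% and 100%. At Rag1, the recombinase gene of lymphocytes that is also transcribed in brain, they were 18.8% and 36.3% against 92.1% and 100%. The types did not overlap in any of the 3, and the limma adjusted p was 0.0881 for each of them. The largest differences the other way were at Dab2ip, a Ras GTPase-activating protein gene, with 79.1% and 100% against 31.8% and 34.5%, at Zfp385b, a zinc-finger gene, with 70.1% and 100% against 38.7% and 20.1%, and at Trhde, which encodes the enzyme that degrades thyrotropin-releasing hormone, with 79.1% and 78.7% against 12.8% and 27.6%. Their limma adjusted p was 0.0971, 0.101 and 0.107. The Dab2ip difference turned to −20.4 points in the wider window, and the cause of this change was not tested.

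**Figure D3:**
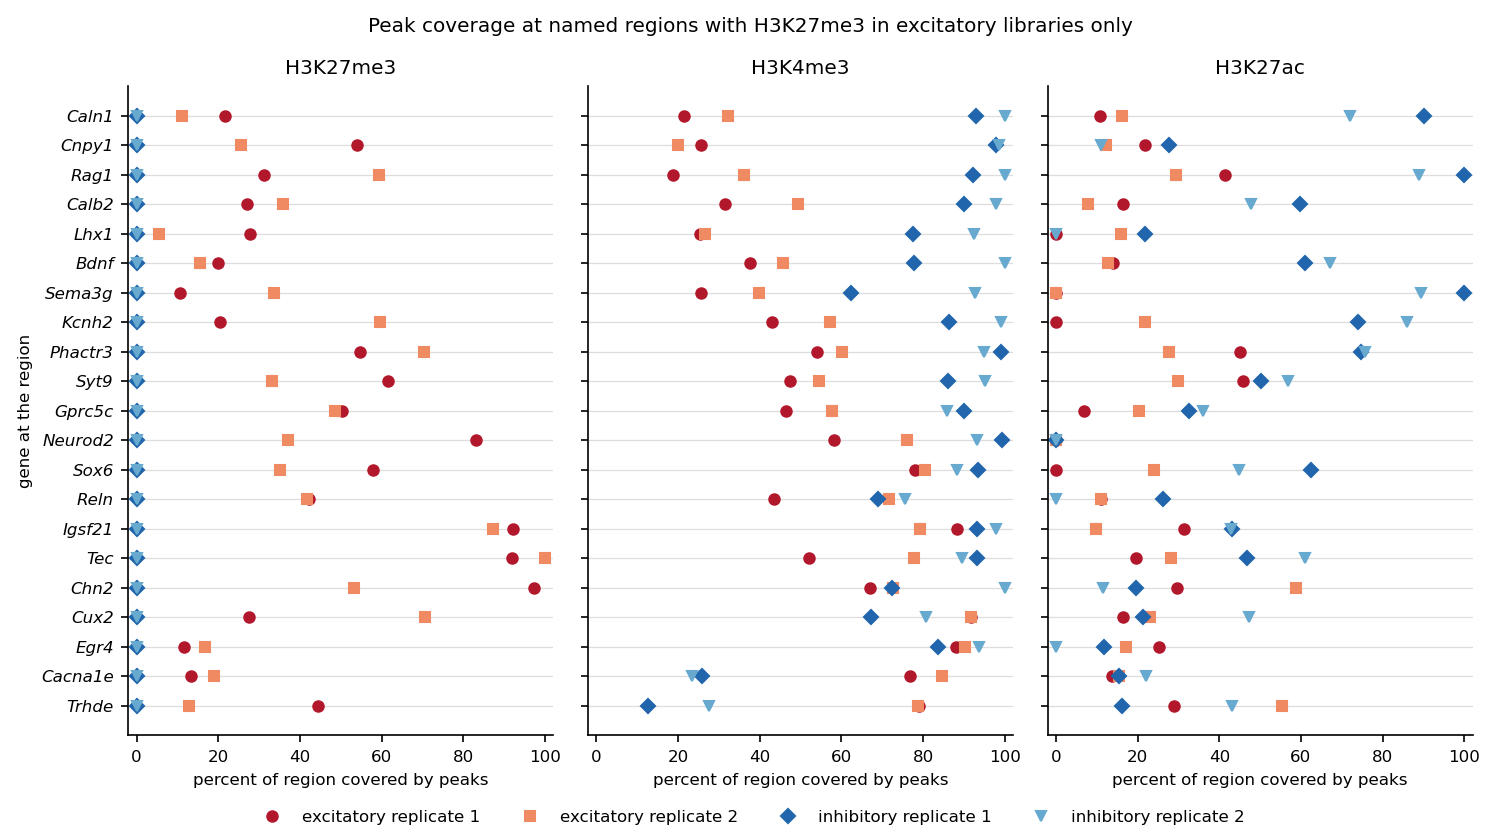
Percent of the region covered by peaks (x axis) of H3K27me3, H3K4me3 and H3K27ac in each of the 4 libraries (points) at 21 named excitatory-only Polycomb regions (y axis). H3K27me3 at 0 in inhibitory libraries is set by the choice; H3K4me3 separates the types widely from Caln1 to Gprc5c, and lies higher in excitatory libraries at Cacna1e and Trhde.

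H3K27ac covered less of these regions in excitatory libraries, but the same held to a lesser degree for all shared regions. At least 1 base of H3K27ac was found in 71.6% and 83.4% of the 535 regions in excitatory and in 89.9% and 93.1% in inhibitory libraries (exact permutation p = 0.333). The median region was covered to 24.4% and 32.1% in excitatory and 56.5% and 61.7% in inhibitory libraries, that is 28.2% ± 5.46 against 59.1% ± 3.73 (SD, n = 2 each). Over all shared regions the medians were 36% ± 6.24 and 52.4% ± 3.26. The H3K27ac libraries differed as a whole: 2.57% and 4.94% of the peaks of the excitatory lists passed a q of 0.05, against 31.8% and 35.1% in the inhibitory lists. The part of this in the difference was not tested.

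After quantile normalization, which takes out differences in total coverage, the median H3K27ac difference was −14.3 percentage points over 507 regions with a peak in at least 2 libraries, and 351 were below 0. The median over all shared regions was −0.23. Before normalization, both excitatory libraries lay below both inhibitory ones at 327 of the 507, or 64.5%, beside 44.6% of all tested regions, and above at 16, or 3.16%, beside 9.69%. limma called 0 of the 507 and 0% of all, and at an unadjusted p of 0.05 it passed 94 lower (6.85% of all tested regions) and 10 higher (7.72%). In the regions with H3K27me3 in both types the order was different, with a peak in 53.9% and 76.6% of regions in excitatory and in 47.8% and 53.1% in inhibitory libraries.

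The smallest p for lower H3K27ac at a named gene were at Sema3g, Ccdc69 and Zfp872. At Sema3g, a secreted semaphorin gene, H3K27ac was listed at 0 in both excitatory libraries and covered 100% and 89.5% of the region in the inhibitory libraries. At Ccdc69, a coiled-coil protein gene assigned by either gene end, it covered 33.4% and 26.7% against 97.4% and 100%. At Zfp872, a zinc-finger gene, it was listed at 0 in both excitatory libraries against 88.3% and 69.2%. No overlap was seen in these 3, and the limma adjusted p was 0.175 for each. In the other direction stood Chn2, a Rac GTPase-activating protein gene, with 29.6% and 58.8% against 19.7% and 11.6%, Itga3, an integrin gene, with 68.8% and 45.1% against 35.6% and 13.1%, and Rcan3, a calcineurin regulator gene, with 27.4% and 50.2% against 21.3% and 26.3%. None of the 3 overlapped, but at Rcan3 the nearest excitatory and inhibitory values lay close together, and the limma adjusted p was 0.256, 0.291 and 0.374.

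H3K4me3 and H3K27ac often had the same order. Both marks had all excitatory libraries below all inhibitory libraries at 217 of the 535 regions, or 40.6%, beside 13.6% of all shared regions, and both were higher in excitatory libraries without overlap at 3, beside 4.28%. Each mark alone had the lower order at 60.4% (H3K4me3) and 64.5% (H3K27ac) of the regions tested. Whether the marks went together beyond these shares was not tested. Caln1, Rag1, Bdnf, Calb2, Sox6 and Kcnh2 were among the 217. Bdnf, the neurotrophin gene, had H3K4me3 over 37.7% and 45.7% in excitatory and 77.8% and 100% in inhibitory libraries, and H3K27ac over 13.9% and 12.8% against 61.1% and 67.1%. Kcnh2, which encodes a voltage-gated potassium channel, had H3K4me3 over 43.0% and 57.3% against 86.4% and 99% and H3K27ac over 0% and 21.8% against 74.1% and 86.0%.

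**Figure D4:**
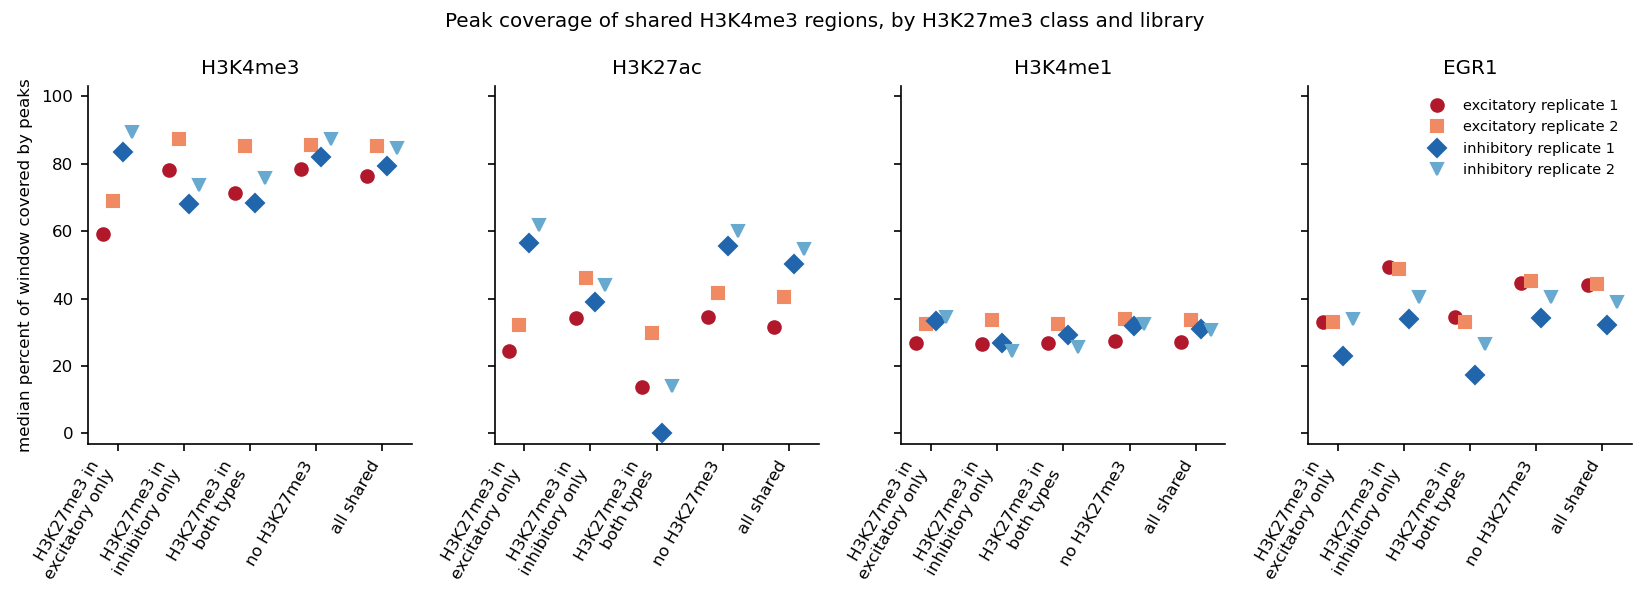
Median percent of the window covered by peaks (y axis; the region, or for H3K4me1 the region plus 2 kb on each side) per library (points), for each H3K27me3 class of shared H3K4me3 regions (x axis) and 4 antibodies. In the excitatory-only class both inhibitory points lie above both excitatory points for H3K4me3, H3K27ac and, narrowly, H3K4me1, whereas for H3K27ac the same order is seen, less widely, over all shared regions.

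H3K4me1 differed little. In the region plus 2 kb on each side it covered a median of 26.9% and 32.5% in excitatory and 33.3% and 34.5% in inhibitory libraries, and at least 1 base lay in 90.5% and 91.2% of the regions in excitatory and in 87.5% and 85.4% in inhibitory libraries (exact permutation p = 0.333). The median difference was −3.48 percentage points over 533 tested regions, with 331 below 0, but it was 3.37 in the region alone. Both excitatory libraries lay below both inhibitory ones at 175, or 32.8%, beside 21.3% of all, and above at 81, or 15.2%, beside 20.2%. limma called 2 of the 533 lower in excitatory libraries, beside 0.12% of all tested regions, and 0 higher, beside 0.178%, or 0.298% in either direction. At an unadjusted p of 0.05 it passed 76 lower (6.44% of all) and 19 higher (6.99%).

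The 2 called regions are named here after their values were seen. The region on chromosome 9 at 90827415 to 90829321 (mm10) holds the start of the long noncoding RNA Gm28703, and its H3K4me1 window was listed at 0 in both excitatory libraries and covered to 47.3% and 46.3% in inhibitory libraries (−46.0 points, SE 8.81, limma adjusted p = 0.0371). The region on chromosome 14 at 122490429 to 122491473 lies within the body of Pcca, which encodes a subunit of the mitochondrial propionyl-CoA carboxylase. Its H3K4me1 window was covered to 6.68% and 5.83% in excitatory and 53.3% and 50.2% in inhibitory libraries (−45.4 points, SE 9.04, limma adjusted p = 0.0371). At the Pcca region the other marks had the same order: H3K4me3 covered 43.8% and 24.3% against 78.5% and 97.0%, H3K27ac 0% and 27.8% against 94.0% and 100%, and EGR1 0% and 0% against 30.0% and 67.1%. Neither call remained under several other settings, among them no quantile normalization, a log2 scale and the region alone, where 0 regions were called. In contrast, 31 regions were called with the replicate number as a block and 19 without excitatory replicate 2.

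EGR1 peaks were found in 78.1% and 78.3% of the 535 regions in excitatory and in 72.0% and 83.9% in inhibitory libraries, so the types overlapped (exact permutation p = 1). Over all shared regions these shares were 88.8% and 89.0% against 81.0% and 87.5%. The median region was covered to 33.1% and 33.0% in excitatory and to 23.0% and 34.0% in inhibitory libraries. limma called 0 of 454 tested regions, beside 0.193% of all (0.0366% lower and 0.157% higher). At an unadjusted p of 0.05 it passed 64 lower (5.69% of all) and 31 higher (7.7%). The median difference was −5.29 percentage points, against −1.90 over all shared regions, and it was 3.96 against 7.43 without quantile normalization. Both excitatory libraries lay below both inhibitory ones at 78 regions, or 17.2%, beside 7.6% of all, and above at 155, or 34.1%, beside 42.7%.

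At Kcnh2 EGR1 covered 0% and 17.7% in excitatory and 65.2% and 85.0% in inhibitory libraries, and at Ebf1, a transcription factor gene of striatal neurons and B cells, 0% and 0% against 58.2% and 54.6%. At Camk2n2, an inhibitor of the calcium/calmodulin-dependent kinase CaMKII, EGR1 covered 39.8% and 43.2% against 58.1% and 66.7%. The limma adjusted p was 0.0643 for Kcnh2 and Ebf1 and 0.135 for Camk2n2. Higher EGR1 coverage in excitatory libraries was measured at Spi1, the myeloid transcription factor gene PU.1, with 48.5% and 54.4% against 0% and 0%, and at Exph5, a Rab27 effector gene, with 48.8% and 53.9% against 0% and 12.3%. Spi1 is assigned by either gene end. At Bdnf, a known activity-induced gene, EGR1 covered 54.1% and 42.4% in excitatory and 9.4% and 15.1% in inhibitory libraries, where H3K4me3 and H3K27ac had the opposite order. These 3 had adjusted p of 0.107, 0.109 and 0.22 in limma, so none passed. The core EGR1 motif GCGTGGGCG, searched on both strands, was found in 2 of 204 start-site sequences of these regions (0.980%), against 1.3% of those in all shared regions and 0.837% of all promoters in the table. None of the 6 sequences printed here held it.

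Nearly equal numbers of the regions lay at protein-coding start sites and away from them. A protein-coding start site was in or within 1 kb of 251 of them (46.9%), against 59.5% of all shared regions and 61.6% of those with H3K27me3 in both types. A further 44 lay at a start of a long noncoding RNA, 123 within a gene body and 117 between genes, the last being 21.9% against 13.7% of all. Both shares were alike in the 1009 regions with H3K27me3 in inhibitory libraries only, with 47.5% at start sites and 23.4% between genes. Neither is thus particular to the excitatory-only Polycomb regions. Only 2 of the excitatory-only regions lay on the X chromosome (0.374%), against 2.71% of all shared regions. The median width was 1675 bases, beside 1734 for all. These shares were not tested.

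The median H3K4me3 difference was below 0 at each kind of position. It was −14.9 points at the 251 start sites and −27.2 at the 44 noncoding RNA starts. At the 123 gene-body regions it was −20.0 and at the 117 intergenic regions −16.0. Over all shared regions the H3K4me3 median was 1.02 at start sites and −0.44 at noncoding RNA starts. It was −5.11 in gene bodies and −1.67 between genes. Away from protein-coding start sites the sign was thus shared with all regions, while the medians given here lay lower at each kind of position. H3K4me1 differed by position. At start sites the median was −0.41 and both excitatory libraries lay below at 23.5% of regions, against 19.4% of all shared start-site regions. That share was 36.4% at noncoding RNA starts and 33.6% in gene bodies, against 22.5% and 25.7% of all shared regions there. Between genes the H3K4me1 median was −9.84, and both excitatory libraries lay below at 59 of 116 regions (50.9%), against 22.5% of all intergenic shared regions. An intergenic example is on chromosome 14 at 14308637 to 14309846, named after its values were seen. There H3K4me3 covered 24.0% and 33.5% in excitatory and 97.7% and 99.9% in inhibitory libraries, and H3K27ac 0% and 0% against 100% and 100%.

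The start-site sequences had a lower median ratio of observed to expected CpGs than those of regions without H3K27me3. The ratio of observed to expected CpGs had a median of 0.690 over 204 start sites of 179 regions, against 0.814 for regions without H3K27me3, 0.679 for those with H3K27me3 in both types and 0.784 for all shared regions. The median number of CpGs per sequence was 21.5, against 23 for regions without H3K27me3. The median GC content was 64.5%, against 62%. These values are a description and were not tested.

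The start-site regions with the broadest excitatory H3K27me3 included those at Gprc5c, Phactr3, Nxph3, Tec, Igsf21, Cadps2, Pip5k1b, Syt9, Akain1, Rom1 with Eml3, and Zbtb7b. At Gprc5c, an orphan G protein-coupled receptor gene, H3K27me3 covered 4048 and 3749 bases of the region plus 2 kb on each side in excitatory and 0 in both inhibitory libraries. At Igsf21, an immunoglobulin-family adhesion protein gene of synapses, it covered 3329 and 3258 bases against 0, and H3K4me3 covered 88.3% and 79.1% of the region in excitatory and 93.3% and 97.8% in inhibitory libraries. At Igsf21 most bases of the region thus lay under both marks in excitatory libraries. At Tec, a non-receptor tyrosine kinase gene, H3K27me3 covered 92.0% and 100% of the region in excitatory libraries, and 1743 and 694 bases of the wider window in inhibitory libraries. Inhibitory H3K27me3 therefore began outside the Tec region.

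H3K4me3 coverage was lower in both excitatory than in both inhibitory libraries at all of these named regions but 3. The same order was found at 60.4% of the 535 regions and at 25% of all shared regions. The share among these few named regions was not tested. The exceptions were Nxph3, Cadps2, a gene for priming dense-core vesicles, with 61.0% and 65.6% in excitatory against 59.8% and 86.4% in inhibitory libraries, and Rom1 with Eml3, with 98.6% and 54.7% against 94.8% and 88.7%. Nxph3, a neurexin-binding protein gene assigned by either gene end, had broad H3K4me3 in both types (91.6% and 86.8% in excitatory against 90.2% and 100% in inhibitory libraries). H3K27ac at Nxph3 covered 0% and 13.0% in excitatory and 40.5% and 50% in inhibitory libraries. Rom1, a structural gene of photoreceptor discs that shares its region with Eml3, had H3K27ac over 0% and 26.1% against 89.7% and 70.3%. Zbtb7b, a transcription factor gene of T-cell fate, had H3K27me3 over 86.4% and 61.8% in excitatory libraries. H3K4me3 at Zbtb7b covered 63.1% and 71.1% in excitatory and 71.1% and 81.8% in inhibitory libraries, so the nearest values were about equal.

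The regions held genes of both neuron classes. In all, 258 of 13011 protein-coding genes with a shared region had an excitatory-only Polycomb region (1.98%). Of 23 excitatory forebrain neuron markers with a shared region 5 did: Neurod2, Cux1, Cux2, Sv2b and Prox1. Of 23 inhibitory neuron markers 5 did as well: Sox6, Prox1, Calb2, Reln and Cnr1. Prox1, a homeobox gene of dentate granule cells and of interneurons from the caudal ganglionic eminence, was in both lists. The inhibitory marker list had 13 genes with H3K27me3 in both types and 0 with it in inhibitory libraries only, and the excitatory list 5 and 1. Among all 13011 coding genes with a shared region these counts were 1772 and 510. A gene with several shared regions was counted in each H3K27me3 class that they fell in. Membership of a gene therefore need not hold for all of its start sites. The counts of the lists were not tested.

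Neurod2, a bHLH activator of excitatory neurons, had H3K27me3 over 83.1% and 37.1% of its region in excitatory libraries and none in inhibitory libraries. H3K4me3 covered 58.1% and 76.1% in excitatory and 99.2% and 93.2% in inhibitory libraries, and H3K27ac was listed at 0 in all 4. The H3K4me3 difference at Neurod2 did not pass (limma adjusted p = 0.139). Cux2, a homeobox gene of upper-layer neurons, had H3K4me3 over 91.6% and 91.8% in excitatory and 67.2% and 80.8% in inhibitory libraries, the reverse order. Of other genes that define the types, Gad2 and Emx1 had H3K27me3 in both types, and Slc17a7, Dlx1 and Dlx2 had a mixed pattern. Gad1, Slc32a1, Lhx6 and Neurod1 had no shared region.

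Lists of other brain cells, all short, held between 0% and 40% members, beside 1.98% of all coding genes. The members were Ebf1 among 17 striatal genes, Lhx1 among 15 thalamic, hypothalamic and brainstem genes, Nhlh2 among 9 cerebellar granule neuron genes, Slc4a4 among 7 astrocyte genes, Spi1 among 3 microglia genes, and 0 of 6 oligodendrocyte lineage and 0 of 6 vascular genes. Among 5 monoaminergic and cholinergic genes 2 were members, Tph2, the serotonin-synthesis enzyme of the raphe, and Nr4a2, a nuclear receptor of dopamine neurons. At Nr4a2 H3K4me3 covered 69.7% and 56.2% in excitatory and 95.2% and 94.7% in inhibitory libraries. At Tph2 it covered 81.4% and 42.8% against 39.5% and 75.5%, so the types overlapped. Elavl4 was the member among 19 pan-neuronal genes.

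Developmental regulators were members at shares of 2.13% to 5.77%, beside 1.98% of all coding genes with a shared region. Of 47 homeobox and paired genes with a shared region only Lhx1 was a member, while 25 had H3K27me3 in both types. Of 52 T-box, SOX, FOX, GATA and bHLH genes Atoh8, Neurod2 and Nhlh2 were members and 27 had it in both types. Of 63 secreted patterning ligands and antagonists Wnt7a and Fgf9 were members and 46 had it in both types. The lists of 3 HOX, 42 Polycomb and Trithorax subunit and 19 housekeeping genes had 0 members each, which at a share of 1.98% over all genes sets none of them apart. At Lhx1 H3K4me3 covered 25.5% and 26.6% in excitatory and 77.5% and 92.4% in inhibitory libraries. At Wnt7a it covered 61.4% and 69.5% against 96.0% and 96.0%. The types did not overlap at either gene.

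Lists of neuronal excitability held 2.5% to 8% members, beside 1.98% of all coding genes. Of 25 glutamate receptor genes these were Grin2c and Grik3, of 16 GABA receptor and transporter genes Gabrd, of 64 voltage-gated ion channel genes Kcnh2, Cacna1a and Cacna1e, and of 40 neuropeptide and peptide receptor genes Crhr1. At Grin2c, an NMDA receptor subunit gene of cerebellum and glia, H3K4me3 covered 20.4% and 56.4% in excitatory and 78.3% and 91.2% in inhibitory libraries. At Grik3, a kainate receptor subunit gene, the order was reversed, with 72.0% and 89.1% against 62.9% and 14.6%. Gabrd, the extrasynaptic GABA-A delta subunit gene, is assigned by either gene end and had 69.9% and 63.8% against 87.9% and 80.4%. Of 20 immediate early and EGR genes Egr4 and Bdnf were members. Egr4, a paralogue of EGR1, had H3K4me3 over 88.1% and 90.2% in excitatory and 83.7% and 93.6% in inhibitory libraries, so the types overlapped there.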

How the data were processed

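Each of the 20 libraries came as a list of peaks, with no read counts, so depth is unknown. Per the submitters' processing notes, tools included Trim Galore 0.5.0, cutadapt 1.18, Bowtie2 2.3.5, SAMtools 1.12, Picard 2.25.0 and MACS2 2.2.5, with mm10 as the build; the sources used here give neither the order of steps nor the peak-calling options. The deposited lists give each peak a fold enrichment (a ratio), a −log10 p and −log10 q, and a score, all as the authors' peak caller wrote them. Peaks were called per library.

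Merging and coverage were computed in Python 3.11.15 with numpy 2.4.6 and pandas 2.3.3, and figures with matplotlib 3.10.9. The measure was the percent of a region (for H3K4me1, the region plus 2 kb on each side) covered by peaks of a library. For H3K27ac, H3K4me1 and EGR1, regions with a peak in fewer than 2 of 4 libraries were left out. Coverage was quantile-normalized over the 4 libraries of an antibody and compared between types with limma 3.58.1 in R 4.3.3, with a trend in the variance, over all shared regions. The p-values were adjusted by Benjamini-Hochberg over all regions fitted, at 0.05. Single values were compared by exact two-sided permutation of the 4 libraries. The fit and the interval arithmetic were tested on simulated data.

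Gene names come from the RefSeq table for GRCm38.p6. Of 21631 coding genes, 17274 had a stranded start site; for the others either gene end was used. Named regions were the 12 with the most excitatory H3K27me3 (1 of them is not reported here), per antibody and direction up to 5 past the threshold or else the 3 with the smallest p, up to 4 members of each of 22 gene lists, those nearest the edge of the choice, and set marker genes. In the wider H3K4me3 window, regions named by these rules are given, with Sema4g added after its values were seen. The members and the lists were chosen with earlier results of these data known. Alternatives changed the peak threshold, normalization, scale, filter, window and libraries.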

Additional observations from a re-analysis of the deposited data

How the results depend on the processing

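With the members chosen from H3K27me3 peaks of −log10 p of at least 2, 137 regions were found, 34 of them among the 535, and at least 3 left 5, with 0 shared. Requiring 500 bases under H3K27me3 left 301, and H3K4me3 peaks of −log10 q of at least 2 left 285. Leaving out 1 library gave 542 to 937 regions (937 without H3K27me3 excitatory replicate 1, and 920 without H3K27me3 excitatory replicate 2 or H3K4me3 excitatory replicate 1). The median H3K4me3 difference kept its sign under each setting run, at −5.76 in the wider window, where 82 regions were called, at −8.29 for members chosen at −log10 p of at least 2, and at −17.7 to −12.3 with 1 library left out; H3K4me3, H3K27ac and EGR1 had 0 regions called with 1 library left out. The median H3K27ac difference was −28.5 without quantile normalization (−15.3 over all regions), −9.06 for regions covered in all 4 libraries, −4.95 in the wider window and −13.6 to −10.1 with 1 library left out. For H3K4me1, 0 regions were called without quantile normalization, on a log2 scale, for regions covered in all 4 libraries, with no filter, at −log10 p of at least 3, with equal numbers of the strongest peaks per library, and in the region alone; 1 library left out gave 0 to 19 calls, 19 of them without excitatory replicate 2 and 0 without inhibitory replicate 1. Its median turned to 3.37 in the region alone. The EGR1 median turned to 3.96 without quantile normalization. The difference in the share of regions with H3K4me1 (4.39 points) turned to −6.07 at −log10 p of at least 3 and −15.4 with equal numbers of strongest peaks, and that of EGR1 (0.280) to −18.6 with the strongest peaks and −5.70 without inhibitory replicate 1 (6.26 without inhibitory replicate 2). For H3K27ac the share difference (−14.0) was −35.5 at −log10 p of at least 3, −24.4 with equal numbers of strongest peaks, −23.8 at 20% of the region covered and −19.9 to −8.13 with 1 library left out. H3K4me3 at Dab2ip turned to −20.4 in the wider window. The cause of these changes was not tested. Replicate numbers are shared between types, and same-numbered libraries deviated together little (r of −0.0034 to 0.051). This cannot show whether they share mice or a batch, which the labels do not state. With the replicate block, 31 regions were called for H3K4me1 (28 lower, 3 higher) and 0 for H3K4me3, H3K27ac and EGR1. Of 1231 pairs of a named region's mark and a setting, 71 changed sign. With 1 library left out, the lone library is assumed to vary like the pair of the other type. Unknown depth limits all coverage values, since a deeper library can call longer peaks.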
